A study of Mus musculus with 14 samples.

Results

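The 39 genes described here encode ATF4 and 7 further regulators or effectors of the integrated stress response, together called regulators below. The others encode 8 enzymes of amino acid and one-carbon metabolism, 6 amino acid transporters and 17 tRNA synthetases. All 39 were taken by gene symbol from a list set out by name, with no measured value in the rule. They are 39 of the 25239 gene symbols in the count table. Each symbol was found: 38 as listed and the methionyl-tRNA synthetase gene Mars as Mars1. All 39 had counts and passed the filter on low counts, so each was among the 13311 genes tested.

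RNA was sequenced from bone marrow-derived macrophages, cells grown out of mouse marrow for 7 to 10 days in DMEM with 10% fetal bovine serum, 5% horse serum and 20% medium conditioned by L929 cells, a source of the macrophage growth factor M-CSF. The knockout (KO) cells came from mice with the genotype Ezh2fl/fl;LysM-Cre+/-, in which Cre recombinase, expressed in myeloid cells from the lysozyme M locus, deletes Ezh2, the enzyme that places the repressive H3K27 methyl mark. The wild-type (WT) cells came from littermates, whose floxed alleles and Cre status, like the age of the mice, are not given in the sources used here. For 24 h the cells were kept either in complete DMEM (control medium) or in medium conditioned by Hepa1-6, a mouse hepatoma cell line (conditioned medium, CM). The 14 libraries form 4 groups: 4 of WT in control medium, 4 of WT in CM, 3 of KO in control medium and 3 of KO in CM. Whether libraries of 1 group came from separate mice is not given, so the p-values measure the spread between these libraries, which may be technical.

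When amino acids run short, when unfolded proteins gather in the endoplasmic reticulum or when other stresses act, kinases phosphorylate the translation initiation factor eIF2. General protein synthesis then slows while the messenger RNA of Atf4 is translated more, and ATF4 protein switches on genes for amino acid synthesis, uptake and loading onto tRNA. Much of the control of ATF4 therefore lies in translation, which counts of messenger RNA do not measure. Many ATF4 target genes carry a response element shared with C/EBP proteins, whose core reads TGATGNAA.

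Summed counts per library ran from 40249866 to 85774436. The labels name no sequencing batch, but the shares of each gene's counts that fell on its single exons set WT libraries 3 and 4, in both media, apart from the other 10 (first principal component 0.401 to 0.442 against -0.209 to -0.148). These 4 libraries also had the highest totals, 80415111 or more against at most 61539097. Genotype and this split cannot be told apart where KO is set against those WT libraries, so the genotype differences that passed a test, and those described in CM, are also given against WT libraries 1 and 2 alone. Ezh2 itself was checked on 2 adjacent exons of 81 and 85 bases, chosen after their values were seen. Their count per base was 87.1% to 145.2% of that of the other inner exons in WT control libraries and 81.1% to 123.5% in WT CM libraries, against 1.8% to 28.0% and 6.3% to 16.7% in the KO libraries. Over the whole gene the log2 difference of KO from WT was -0.31 in control medium (edgeR adjusted p = 0.0761) and -0.40 in CM (adjusted p = 0.0334). Against WT libraries 1 and 2 alone it was -0.15 (adjusted p = 0.439) and -0.34 (adjusted p = 0.0536). The 10 macrophage markers summed to 30409 to 36928 CPM (counts scaled to library size) in WT libraries and 20224 to 23165 CPM in KO libraries. Of the 10, 1 was called between genotypes in each medium: Lyz2, the lysozyme M gene whose locus carries Cre, had a mean of 21891 CPM in WT and 10221 CPM in KO control libraries and of 20458 and 9478 CPM in CM. The part of this in the results below was not tested. The defining hepatocyte genes Alb, Fgb, Ahsg and Serpina1a were at 0 everywhere, fibroblast markers summed to at most 1.75 CPM and T and B cell markers to at most 2.43 CPM.

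The promoter letters of the members were read first, because the core TGATGNAA is the feature that ATF4 targets are known to share. RefSeq gave a window from 250 bases before to 50 bases after the annotated start for 30 of the 39 members (GRCm38.p6). No window was held for Cars, Hars, Lars, Nars, Rars, Slc1a5, Slc7a5, Vars and Wars. The core, searched on both strands, stood in the window of 10 of the 30 members (33.3%), against 3.97% of all 32851 windows of the same length and 4.51% of 27025 genes. The matches of 9 of these genes are given as 30 bases of the gene's own strand, 5′ to 3′, with the core or its reverse complement in capitals.

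Atf3, chr1:191183425-191183454, minus strand: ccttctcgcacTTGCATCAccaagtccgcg
Chac1, chr2:119351038-119351067, plus strand: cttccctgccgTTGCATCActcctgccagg
Trib3, chr2:152344028-152344057, minus strand: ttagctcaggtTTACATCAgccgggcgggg
Asns, chr6:7693214-7693243, minus strand: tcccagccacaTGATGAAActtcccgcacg
Slc1a4, chr11:20332699-20332728, minus strand: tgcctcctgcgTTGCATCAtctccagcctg
Gars, chr6:55037960-55037989, plus strand: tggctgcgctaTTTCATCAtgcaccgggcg
Iars, chr13:49682126-49682155, plus strand: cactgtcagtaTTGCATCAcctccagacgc
Tars, chr15:11399655-11399684, minus strand: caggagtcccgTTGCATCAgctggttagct
Yars, chr4:129189895-129189924, plus strand: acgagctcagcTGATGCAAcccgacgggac

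The 11 matches in the 10 genes began between 193 bases before the start (Chac1) and 15 bases after it (Trib3). Those of Asns and Yars read as TGATGNAA along the gene, and the other 9 read as its reverse complement. A match is a run of letters and not a measured binding site. The 10 genes are 3 regulators, 1 enzyme, 1 transporter and 5 synthetases.

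CM raised most of the members that responded to it. In WT cells 18 of the 39 members rose and 3 fell at an adjusted p below 0.05 (edgeR quasi-likelihood test, Benjamini-Hochberg over all genes tested), where 37.3% of all genes were called, 19.3% higher and 18.0% lower. The median change of the members was 0.18 on the log2 scale, against -0.01 for all genes. In KO cells the count was again 18 higher and 3 lower, where 38.1% of all genes were called, 20.0% higher and 18.2% lower, with a median of 0.27 against -0.01. Of these calls 17 were shared and in the same direction: 14 genes rose in both genotypes, and Atf3, Slc3a2 and Dars fell in both. Slc1a5, Hars, Lars and Vars passed in WT cells alone and Trib3, Gars, Rars and Tars in KO cells alone, while 14 members passed in neither. Across the 39 members the changes in WT and KO cells, which share no library, had a Pearson r of 0.85, against 0.88 over all genes tested. In bulk RNA, fewer cells of a type and less RNA per cell cannot be told apart.

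The WT count was 17 (13 higher, 4 lower) within WT libraries 1 and 2 and 23 (19 higher, 4 lower) within libraries 3 and 4. Over all genes these fits called 4348 and 4889. Scaling by library totals alone moved the median of all genes to -0.09 in WT and -0.12 in KO cells. It gave 14 members higher and 5 lower in WT cells and 15 higher and 5 lower in KO cells, the added lower ones being Ppp1r15a and Nars in both. Over all genes it turned 2570 higher and 2390 lower calls in WT cells into 1957 higher and 3501 lower, and 2659 higher and 2418 lower calls in KO cells into 1941 higher and 3624 lower.

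**Figure D1:**
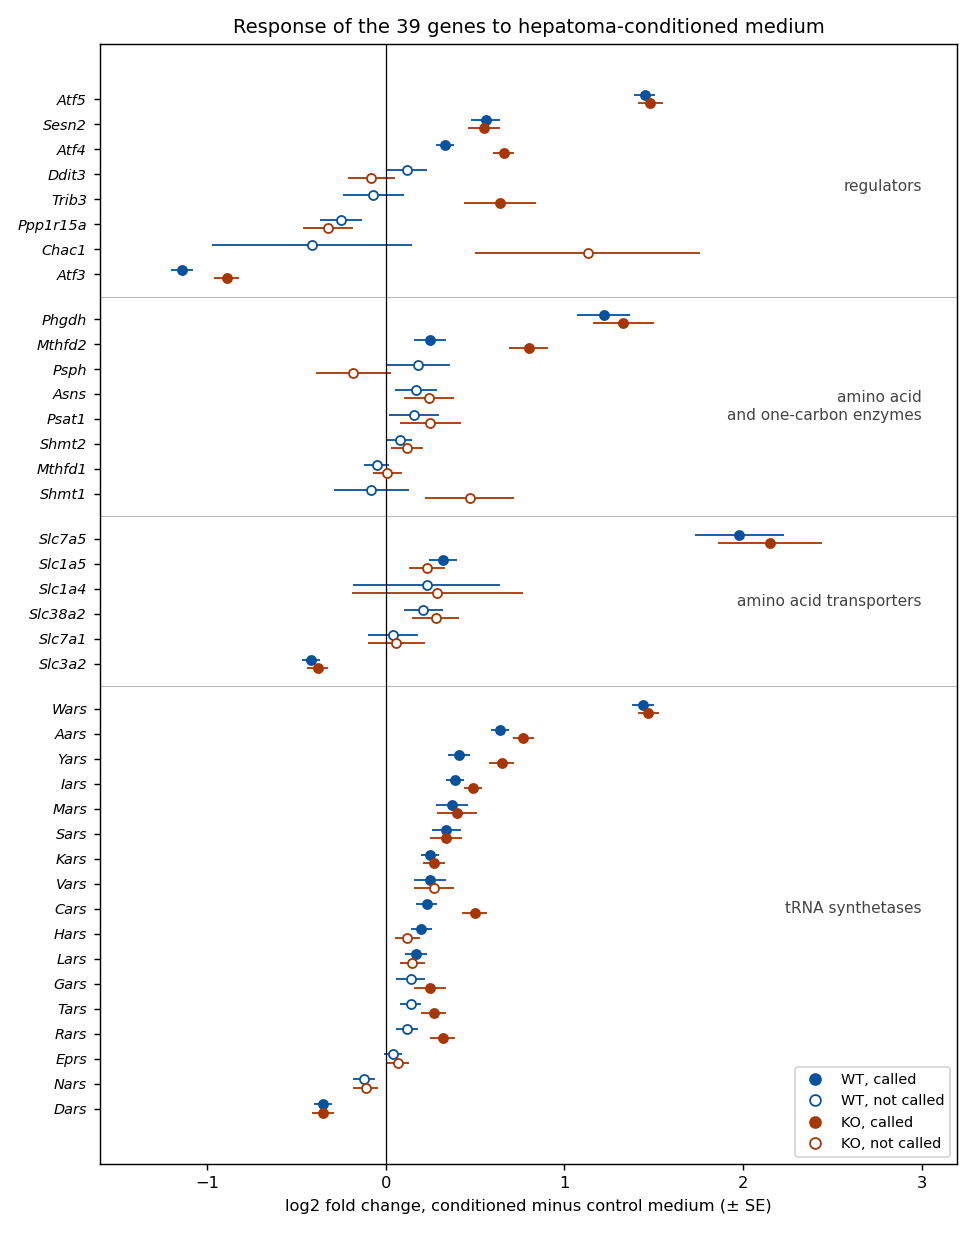
Change of each of the 39 genes with CM, as log2 fold change against control medium (horizontal axis, point with its standard error), in WT (blue) and KO cells (brown), grouped by role; filled points passed an adjusted p of 0.05. Among the synthetases Wars stands apart near 1.45, Nars and Dars lie below 0 and the other 14 lie between 0 and 0.8. Of the other members, Atf3, Slc3a2 and Ppp1r15a lie below 0 in both genotypes.

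Of the 10 macrophage markers, 2 rose and 3 fell with CM in each genotype. Some monocyte markers moved with CM as well. The 5 genes Ly6c2, Ccr2, Vcan, Plac8 and Chil3 summed to 40.4 to 52.0 CPM in WT control libraries and 143.6 to 197.5 CPM in WT CM libraries. In KO libraries they summed to 47.4 to 54.2 CPM and 183.2 to 204.7 CPM. Of the 5, 3 rose in each genotype (Ccr2, Vcan and Plac8), and none was at 0 in a whole group. The other 2, Ly6c2 and Chil3, were not called. Their log2 changes were -1.17 and -0.15 in WT cells and -0.69 and 0.40 in KO cells, so the list did not move as a whole. Neutrophil markers summed to 68.5 to 84.8 CPM in WT control and 84.0 to 97.7 CPM in WT CM libraries, and to 84.8 to 92.7 CPM and 101.7 to 120.4 CPM in KO libraries. Most of that sum was Csf3r, the receptor for the growth factor G-CSF, with means of 75.0 and 86.5 CPM in WT and 87.5 and 105.0 CPM in KO cells. Of 7 neutrophil markers tested, 3 rose in each genotype (Csf3r, Elane and Prtn3), while 1 fell in WT and 2 in KO cells. Between 1 and 3 of the 10 were at 0 in each group. Dendritic cell markers summed to at most 3.17 CPM in any library, and of 5 tested 1 rose and 2 fell in each genotype. The part of these markers in the results below was not tested.

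Of the 8 regulators, 3 rose and 1 fell with CM in WT cells, and 4 rose and 1 fell in KO cells. That was 4 of 8 in WT and 5 of 8 in KO cells, against 37.3% of all genes called in WT and 38.1% in KO cells. The largest rise was that of Atf5 (GRCm38 chr7:44812256-44816658), a bZIP factor related to ATF4 that is also translated more under stress. Its level was 16.0, 16.1, 17.4 and 17.9 CPM in the 4 WT control libraries and 46.2, 47.0, 46.2 and 45.2 CPM in the WT CM libraries. KO cells had 15.6, 17.1 and 16.7 CPM in control medium and 43.9, 48.6 and 45.2 CPM in CM. Every CM library thus lay above every control library, by 2.74-fold in WT cells (log2 change 1.45 ± 0.06 SE, adjusted p = 3.2e-11) and 2.78-fold in KO cells (1.48 ± 0.07, adjusted p = 1.64e-10). KO and WT cells were close in both media, with log2 differences of -0.03 (approximate 95% interval -0.16 to 0.09) and -0.01 (-0.13 to 0.11).

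The first exon of Atf5 overlaps exons of Il4i1 and Nup62 on the other strand, and whether counting used strand is not given in the sources used here. Nup62 rose with CM by 0.82 and 0.94 in WT and KO cells and Il4i1 fell by 0.65 and 0.99. The most-counted exon of Atf5, which overlaps neither, changed by 1.49 and 1.59, as much as the whole gene.

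Atf4 (chr15:80255184-80257541) rose in both genotypes by less. WT control libraries had 50.7, 53.5, 51.2 and 51.2 CPM and WT CM libraries 64.1, 63.0, 67.8 and 65.2 CPM, without overlap. The log2 change was 0.33 ± 0.05 (1.26-fold, adjusted p = 0.000107), and it was 0.28 within WT libraries 1 and 2 and 0.38 within libraries 3 and 4. KO libraries had 43.8, 43.3 and 43.1 CPM in control medium and 67.3, 75.0 and 63.9 CPM in CM, a log2 change of 0.66 ± 0.06 (1.58-fold, adjusted p = 4.17e-07).

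Atf3, a bZIP repressor that is switched on early by many stresses, went the other way. It fell from 175.3, 160.8, 169.7 and 174.9 CPM in WT control libraries to 73.5, 75.3, 85.4 and 73.6 CPM in WT CM libraries, a log2 change of -1.14 ± 0.06 (2.21-fold lower, adjusted p = 5.06e-10). In KO cells it fell from 158.4, 156.1 and 170.2 CPM to 92.9, 84.9 and 84.0 CPM, a change of -0.89 ± 0.07 (1.85-fold lower, adjusted p = 5.61e-08). Per kilobase of exon Atf3 ranked second among the members in control medium in both genotypes, at 86.1 and 81.8 CPM per kb, and the third in CM, at 38.9 and 44.2 CPM per kb. Its promoter holds one of the cores printed above.

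Sesn2, a leucine-binding protein that restrains the growth kinase complex mTORC1, had 18.6, 18.9, 19.9 and 21.5 CPM in WT control libraries and 27.2, 30.0, 28.4 and 30.7 CPM in WT CM libraries. The KO libraries had 19.9, 23.4 and 21.4 CPM in control medium and 29.1, 31.0 and 34.9 CPM in CM. The rise was 1.47-fold in both genotypes (log2 0.56 ± 0.08, adjusted p = 2.42e-05, and 0.55 ± 0.09, adjusted p = 0.000122), and the groups did not overlap.

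Trib3, a pseudokinase that binds ATF4 and restrains it, was scarce. It had 1.65, 1.25, 1.6 and 1.64 CPM in WT control libraries against 1.25, 1.38, 1.85 and 1.36 CPM in WT CM libraries, which overlap (log2 -0.07 ± 0.17, adjusted p = 0.804). KO libraries went from 0.855, 1.03 and 1.13 CPM to 1.45, 1.47 and 1.76 CPM, a rise of 0.64 ± 0.20 (adjusted p = 0.0209). That call was lost without KO control library 1 (adjusted p = 0.0892) or KO CM library 3 (adjusted p = 0.0832). The difference of the 2 changes, 0.70 ± 0.26, did not pass (adjusted p = 0.496).

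The other 3 regulators passed in neither genotype. Ddit3, which encodes the stress factor CHOP, had 16.4 to 21.6 CPM in WT control libraries and 17.0 to 22.8 CPM in WT CM libraries, with log2 changes of 0.12 ± 0.11 in WT and -0.08 ± 0.13 in KO cells. Ppp1r15a (GADD34), the subunit that directs phosphatase to eIF2 and so ends the response, changed by -0.25 ± 0.12 in WT cells (adjusted p = 0.112) and by -0.32 ± 0.14 in KO cells (adjusted p = 0.0831). With the WT libraries paired by number its WT change of -0.26 passed (adjusted p = 0.00999). This pairing cannot be told apart from the split of libraries, here or for the members below. With the split as a term the change passed as well (adjusted p = 0.00692). Chac1, an enzyme that degrades glutathione, was counted 2 to 13 times per library, so a change could not be resolved at this depth (-0.41 ± 0.56 and 1.13 ± 0.63).

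**Figure D2:**
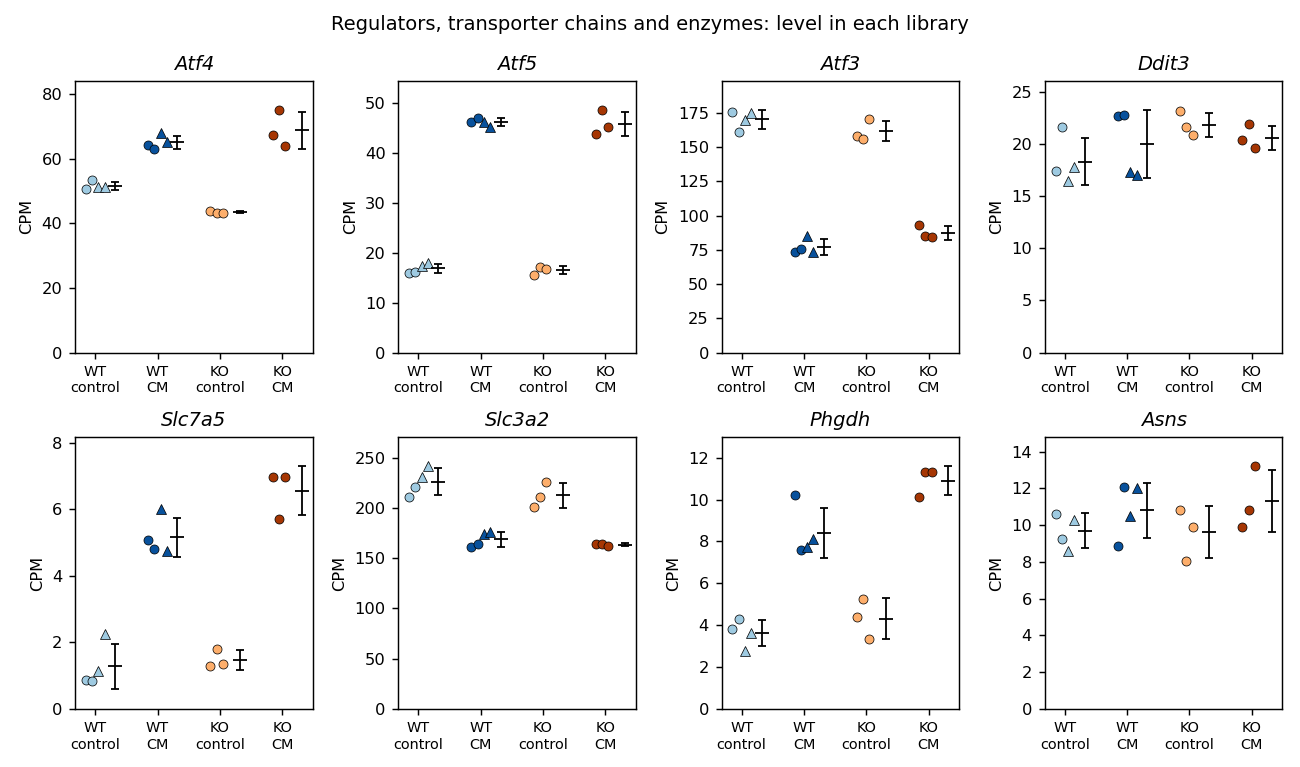
Level of 4 regulators, the 2 chains of a transporter and 2 enzymes in each library, in CPM (vertical axes from 0), by group; circles and triangles are libraries, triangles being WT libraries 3 and 4, and the bar beside each group is its mean with the SD. Atf5, Slc7a5 and Phgdh lie higher in every CM library than in any control library of the same genotype, Atf3 and Slc3a2 lower, and Ddit3 and Asns overlap.

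Of the 8 enzymes, 2 rose with CM in each genotype and none fell. That was 25.0% of the enzymes, against 37.3% of all genes called in WT and 38.1% in KO cells. Phgdh, which commits a glycolytic intermediate to serine synthesis, had 3.82, 4.27, 2.78 and 3.61 CPM in WT control libraries and 10.2, 7.61, 7.71 and 8.12 CPM in WT CM libraries. In KO cells it had 4.37, 5.24 and 3.31 CPM in control medium and 10.1, 11.3 and 11.3 CPM in CM. It rose 2.33-fold in WT cells (log2 1.22 ± 0.15, adjusted p = 9.75e-06) and 2.52-fold in KO cells (1.33 ± 0.17, adjusted p = 1.83e-05), and the groups did not overlap.

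The next 2 enzymes of serine synthesis did not pass. Psat1, the aminotransferase, changed by 0.16 ± 0.14 in WT and 0.25 ± 0.17 in KO cells (adjusted p = 0.434 and 0.267). Psph, the phosphatase that releases serine, changed by 0.18 ± 0.18 and -0.18 ± 0.21 (adjusted p = 0.488 and 0.538). The first enzyme of the 3-step route thus rose more than 2-fold. The approximate 95% intervals of the others in WT cells ended at 0.44 and 0.53 on the log2 scale.

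Mthfd2, a mitochondrial folate enzyme, had 8.40, 9.65, 7.45 and 8.22 CPM in WT control libraries and 10.7, 9.85, 10.3 and 9.29 CPM in WT CM libraries, with overlap. It rose by 0.25 ± 0.09 in WT cells (adjusted p = 0.0371), a call that was lost when any of 6 of the 8 WT libraries was left out (adjusted p up to 0.119). KO libraries went from 7.09, 6.47 and 5.95 CPM to 11.2, 10.8 and 11.9 CPM without overlap, a rise of 0.80 ± 0.11 (1.74-fold, adjusted p = 2.03e-05). Asns, which makes asparagine and whose promoter holds the TGATGAAA printed above, had 10.6, 9.25, 8.59 and 10.3 CPM in WT control libraries and 8.88, 12.1, 10.5 and 12.0 CPM in WT CM libraries. Its log2 change of 0.17 ± 0.12 in WT cells and 0.24 ± 0.14 in KO cells did not pass (adjusted p = 0.328 and 0.223). The serine hydroxymethyltransferases Shmt1 and Shmt2 and the cytosolic folate enzyme Mthfd1 changed by -0.08 to 0.08 in WT and by 0.01 to 0.47 in KO cells, and none passed.

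The 6 transporters held the largest rise of all members beside 1 fall. With CM 2 rose and 1 fell in WT cells, and 1 rose and 1 fell in KO cells. That was 3 of 6 in WT and 2 of 6 in KO cells, against 37.3% of all genes called in WT and 38.1% in KO cells. Slc7a5 and Slc3a2 encode the light and heavy chains of LAT1, the transporter of leucine and other large neutral amino acids, and they moved in opposite directions. Slc7a5 (chr8:121881150-121907694) had 0.869, 0.822, 1.14 and 2.24 CPM in WT control libraries and 5.06, 4.79, 6.01 and 4.75 CPM in WT CM libraries. KO libraries went from 1.27, 1.81 and 1.34 CPM to 6.98, 5.70 and 6.97 CPM. The rise was 3.96-fold in WT cells (log2 1.98 ± 0.25, adjusted p = 1.07e-05) and 4.43-fold in KO cells (2.15 ± 0.29, adjusted p = 2.52e-05). WT control library 4 was the highest of its group, and the WT change was 2.54 within libraries 1 and 2 and 1.67 within libraries 3 and 4.

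Slc3a2, which also pairs with the light chains of other transporters, fell from 210.8, 221.1, 231.3 and 241.5 CPM in WT control libraries to 161.1, 164.2, 174.5 and 176.1 CPM in WT CM libraries (log2 -0.42 ± 0.05, 1.34-fold lower, adjusted p = 1.38e-05). In KO cells it fell from 200.8, 211.2 and 225.7 CPM to 164.6, 163.8 and 162.3 CPM (-0.38 ± 0.06, 1.30-fold lower, adjusted p = 0.000172). Neither genotype's groups overlapped. Slc3a2 remained far above Slc7a5 per kilobase of exon, at 67.1 against 0.361 CPM per kb in WT control libraries and 50.2 against 1.47 CPM per kb in WT CM libraries.

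Slc1a5, the glutamine and neutral amino acid exchanger ASCT2, rose in WT cells from 21.0, 21.2, 17.0 and 19.6 CPM to 28.6, 23.2, 23.4 and 23.3 CPM (0.32 ± 0.08, adjusted p = 0.00585). In KO cells its change of 0.23 ± 0.10 missed the threshold (adjusted p = 0.072), although 25.0, 24.7 and 25.3 CPM in CM all lay above 20.9, 20.7 and 22.4 CPM in control medium. The difference of the 2 changes was -0.09 ± 0.13 (adjusted p = 0.925). Slc38a2 (SNAT2), an amino acid carrier that cells raise when amino acids are short, changed by 0.21 ± 0.11 and 0.28 ± 0.13 (adjusted p = 0.156 and 0.108). With the WT libraries paired by number the WT change of 0.21 passed (adjusted p = 0.00285). The cationic amino acid transporter Slc7a1 and the scarce serine and alanine exchanger Slc1a4 changed by 0.04 to 0.29 and did not pass.

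Among the 17 tRNA synthetases, 11 rose and 1 fell with CM in each genotype, with median changes of 0.23 in WT and 0.27 in KO cells. That was 70.6% of the synthetases, against 37.3% of all genes called in WT and 38.1% in KO cells. These enzymes load tRNAs with their amino acids, and their gene names begin with the amino acid's letter. Wars, the tryptophanyl-tRNA synthetase gene (chr12:108860030-108894174), rose most. It had 39.6, 46.4, 44.3 and 44.6 CPM in WT control libraries and 121.8, 124.6, 115.3 and 112.2 CPM in WT CM libraries. KO libraries went from 40.5, 43.6 and 40.8 CPM to 115.8, 113.1 and 116.4 CPM. Every CM library was above every control library, by 2.71-fold in WT cells (log2 1.44 ± 0.06, adjusted p = 2.54e-11) and 2.76-fold in KO cells (1.47 ± 0.06, adjusted p = 1.19e-10). Wars thereby went from rank 18 of the 39 members per kilobase of exon in WT control libraries to rank 6 in WT CM libraries.

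Aars followed, with 62.3, 63.8, 66.6 and 66.4 CPM in WT control libraries and 96.1, 96.8, 103.5 and 108.6 CPM in WT CM libraries (0.64 ± 0.05, 1.56-fold, adjusted p = 1.22e-07). In KO cells it went from 54.7, 53.2 and 52.5 CPM to 91.2, 96.3 and 85.2 CPM (0.77 ± 0.06, 1.70-fold, adjusted p = 1.1e-07). Aars shares exon sequence on its own strand with Exosc6, which changed by -0.28 in WT and -0.43 in KO cells and did not pass (adjusted p = 0.248 and 0.141).

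Yars had 20.0, 22.7, 18.7 and 20.3 CPM in WT control libraries and 27.2, 27.4, 26.7 and 27.4 CPM in WT CM libraries (0.41 ± 0.06, adjusted p = 7.01e-05). In KO cells it rose from 20.0, 21.1 and 19.4 CPM to 32.5, 31.9 and 30.5 CPM (0.65 ± 0.07, adjusted p = 3.33e-06). Iars had 76.0, 75.2, 78.8 and 80.8 CPM in WT control libraries and 100.2, 99.7, 101.5 and 106.2 CPM in WT CM libraries (0.39 ± 0.05, adjusted p = 5.01e-06). In KO cells it rose from 68.2, 67.7 and 70.3 CPM to 91.6, 100.1 and 97.1 CPM (0.49 ± 0.05, adjusted p = 2.53e-06), and its groups did not overlap in either genotype. On the most-counted exon alone Iars missed the threshold in both genotypes (0.34, adjusted p = 0.16, and 0.57, adjusted p = 0.0507) and Yars missed it in KO cells (0.20, adjusted p = 0.387).

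Cars had 40.1, 36.2, 38.6 and 38.5 CPM in WT control libraries and 43.0, 43.4, 47.4 and 46.7 CPM in WT CM libraries, a rise of 0.23 ± 0.06 (adjusted p = 0.00355). Within WT libraries 1 and 2 the rise of 0.17 missed the threshold (adjusted p = 0.101). KO libraries went from 33.3, 29.7 and 33.1 CPM to 45.8, 45.3 and 44.9 CPM (0.50 ± 0.07, adjusted p = 1.67e-05). On the most-counted exon Cars missed the threshold in both genotypes (0.12, adjusted p = 0.586, and 0.35, adjusted p = 0.166). Mars, Sars and Kars rose in both genotypes by 0.25 to 0.40. Mars overlaps Ddit3 on the other strand at their 3′ ends. Hars, Lars and Vars rose in WT cells by 0.17 to 0.25, with KO changes of 0.12 to 0.27 that did not pass. Without single libraries Lars lost its call in 4 cases (adjusted p up to 0.103) and Vars in 8 (adjusted p up to 0.141), and Hars kept it in every case.

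Gars, Rars and Tars rose in KO cells by 0.25 to 0.32, where the Gars call was lost without any of 5 of the 6 KO libraries (adjusted p up to 0.102). Their WT changes of 0.12 to 0.14 did not pass, but passed with the WT libraries paired by number (Gars adjusted p = 0.0172, Rars 0.0285, Tars 0.037). With the split of libraries as a term they passed as well (Gars adjusted p = 0.0268, Rars 0.0315, Tars 0.0428). On its most-counted exon Tars changed by -0.05 in KO cells (adjusted p = 0.78). None of the 6 synthetase genes called in a single genotype passed the test of the difference between genotypes.

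Dars, the aspartyl-tRNA synthetase, was the 1 synthetase gene that fell. It had 109.0, 92.3, 100.6 and 101.3 CPM in WT control libraries and 80.0, 79.0, 79.1 and 78.4 CPM in WT CM libraries. KO libraries went from 99.4, 98.5 and 109.6 CPM to 78.7, 83.2 and 79.6 CPM, and the groups did not overlap in either genotype. The log2 change was -0.35 ± 0.05 in WT cells (1.27-fold lower, adjusted p = 9.08e-05) and -0.35 ± 0.06 in KO cells (adjusted p = 0.000369). On the most-counted exon alone Dars missed the threshold in WT cells and passed it in KO cells. Nars, which had the highest level per kilobase of exon of all members in each group (104.4 to 122.5 CPM per kb), changed by -0.12 ± 0.06 in WT and -0.11 ± 0.07 in KO cells (adjusted p = 0.121 and 0.234), and the WT change passed with the libraries paired (adjusted p = 0.0165). Eprs, whose protein joins 2 synthetases in 1 chain, changed by 0.04 ± 0.05 and 0.07 ± 0.06.

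Wars has 2 alternative first exons that the count table lists separately. By their lengths they match GRCm38 exons of 106 bases at chr12:108894069-108894174 (outer) and 39 bases at chr12:108893160-108893198 (inner), on the minus strand. The inner exon was counted 2, 8, 0 and 1 times in the WT control libraries and 38, 45, 27 and 27 times in the WT CM libraries. In KO libraries it was counted 3, 0 and 3 times in control medium and 31, 41 and 66 times in CM. As a share of the count of exon 2 this was 0% to 5.7% in WT control, 5.6% to 14.7% in WT CM, 0% to 2.7% in KO control and 13.5% to 19.3% in KO CM libraries. The share of the outer exon ran from 7.2% to 10.6% for WT libraries 3 and 4, against 37.4% to 66.9% for the other 10, so it was lower on the one side of the split of libraries described above. In KO cells, all on the other side, it also went from 54.5% to 66.9% in control medium down to 37.4% to 45.6% in CM, without overlap. The WT libraries did overlap. The outer share was 62.6% and 47.9% in control medium against 44.6% and 52.6% in CM for WT libraries 1 and 2. For WT libraries 3 and 4 it was 10.6% and 7.2% against 8.7% and 8.4%. Within each set of libraries the share of the inner exon was higher in every CM library than in every control library of that genotype. These exon values were singled out after they were seen and carry no test.

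**Figure D3:**
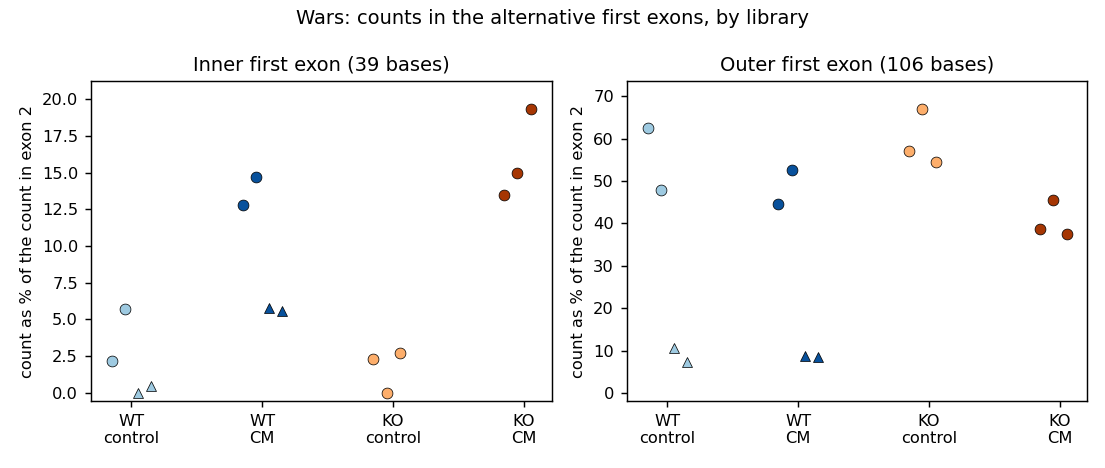
Counts in the inner (left) and outer (right) first exon of Wars in each library, as a percentage of the count in exon 2 (vertical axes), by group; triangles are WT libraries 3 and 4. In the left panel the CM libraries reach 5.6% to 19.3% and the control libraries 0% to 5.7%, and in the right panel the triangles stand apart at 7.2% to 10.6%.

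Wars is also a known target of interferon gamma, so genes that interferon gamma induces were read beside it. Of 13 tested, 3 rose and 5 fell with CM in each genotype (61.5%, against 37.3% of all genes in WT and 38.1% in KO cells). Gbp7, a guanylate-binding protein, rose by 1.05 ± 0.05 in WT cells (adjusted p = 1.29e-10), whereas Ciita, the master activator of MHC class II genes, fell by 1.92 on the log2 scale (adjusted p = 1.37e-07). Cxcl10, a chemokine, fell by 1.67 on the log2 scale (adjusted p = 5.36e-06).

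The genes around the members moved unevenly. Of 15 tested kinases and regulators of the integrated stress response, 4 rose and 1 fell in WT cells (3 and 1 in KO cells), with a median of 0.05 in WT cells. These calls were 33.3% and 26.7% of the list, against 37.3% of all genes in WT and 38.1% in KO cells. For the lists that follow the share called is given in parentheses. Eif2ak3 (PERK), the kinase that senses unfolded proteins, rose by 0.36 ± 0.05 (adjusted p = 4.55e-05). Cebpb, a bZIP partner of ATF4, rose by 1.33 ± 0.24 (adjusted p = 0.00037), and Eif2b2, a subunit of the exchange factor for eIF2, by 0.33 ± 0.09 (adjusted p = 0.00674). Of 20 other ATF4 target genes tested, 9 rose and 3 fell in each genotype (60.0%), with medians of 0.22 in WT and 0.18 in KO cells. Nupr1, a small stress protein, rose from a mean of 10.1 to 36.5 CPM in WT cells (1.85 ± 0.10, adjusted p = 7.9e-10). Mthfd1l, a mitochondrial folate enzyme, rose by 1.11 ± 0.08 (adjusted p = 2.2e-08) and Herpud1, a protein of endoplasmic reticulum-associated degradation, by 0.66 ± 0.06 (adjusted p = 4.36e-07). The 3 that fell in both genotypes were Pck2, Xpot and Sqstm1.

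Of 6 other genes of cytosolic synthetases and their scaffold, 3 rose in WT cells. Both chains of phenylalanyl-tRNA synthetase did so, Farsa by 0.38 ± 0.08 (adjusted p = 0.00153) and Farsb by 0.30 ± 0.06 (adjusted p = 0.00179), as did the glutaminyl enzyme Qars by 0.23 ± 0.08 (adjusted p = 0.0257). Of the 17 mitochondrial synthetases tested, 1 (5.9%) rose in WT cells, Nars2 by 0.43 ± 0.15 (adjusted p = 0.0307), and the median was 0.02. Tars2 and Mars2 changed by 0.25 ± 0.10 and 0.28 ± 0.15 and did not pass (adjusted p = 0.0633 and 0.148). In KO cells 1 mitochondrial synthetase fell and none rose (5.9%).

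Of 14 other amino acid transporters, 4 rose and 5 fell in WT cells (64.3%), and 4 rose and 6 fell in KO cells (71.4%). Slc7a8 (LAT2), a second light chain that pairs with Slc3a2, fell by 0.81 on the log2 scale in WT cells (adjusted p = 1.31e-07). Slc7a2, a carrier of arginine and lysine, rose by 0.95 ± 0.10 (adjusted p = 2.52e-06) and Slc36a1, a lysosomal amino acid carrier, by 0.60 ± 0.07 (adjusted p = 6.65e-06). Of 14 genes of glycine cleavage and folate metabolism, 4 rose and none fell in WT cells (28.6%), and 6 rose and 2 fell in KO cells (57.1%). Beside Mthfd1l these included Sfxn1, a mitochondrial serine transporter (0.55 ± 0.08, adjusted p = 2.66e-05), and Aldh1l1, which removes formyl-folate in the cytosol (0.51 ± 0.07, adjusted p = 4.92e-05).

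Of the 10 members with a promoter core, 3 rose and 1 fell with CM in WT cells, and 6 rose and 1 fell in KO cells. Of the 20 members with a window and no core, 8 rose and 2 fell in each genotype. Of all genes 37.3% were called in WT and 38.1% in KO cells. No match says only that these letters are not in this window.

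In control medium 5 of the 39 members were lower in KO than in WT cells and none was higher, where 5.32% of all genes were called, 2.82% higher and 2.50% lower. They were Atf4, Mthfd2 and the synthetase genes Aars, Cars and Rars. The median difference of the members was -0.06, against 0.00 for all genes. An unadjusted p below 0.05 was found for 11 of 39 members. The share of all genes below it was not worked out, so no excess among the members is shown. Scaling by library totals alone left 4 of the 5 called members lower. It turned 375 higher and 333 lower calls over all genes into 605 higher and 182 lower. For all 5 genes every KO control library lay below every WT control library. The same held for 9 of the 39 members in all, called or not. How many of all genes were so separated was not worked out, so the 9 are not shown to be an excess. The 5 were picked by a test on these same values. Against WT libraries 1 and 2 alone 4 members were lower and none higher, but against libraries 3 and 4 alone 11 were lower and 7 higher. Over all genes the first fit called 220 lower and 294 higher, and the second 2623 lower and 2623 higher.

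Rars had the smallest p, with 58.3, 52.4 and 56.3 CPM in KO and 71.9, 68.0, 74.2 and 72.4 CPM in WT control libraries (log2 -0.36 ± 0.06, 1.29-fold lower, adjusted p = 0.0059). With only WT libraries 1 and 2 the difference was -0.33 (adjusted p = 0.00889). Aars differed by -0.28 ± 0.06 (1.21-fold lower, adjusted p = 0.015), and by -0.23 within WT libraries 1 and 2 (adjusted p = 0.0387). Atf4 differed by -0.25 ± 0.06 (1.19-fold lower, adjusted p = 0.0222), and by -0.26 within those libraries (adjusted p = 0.0429).

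Cars was lower in the KO than in the WT control libraries given above (-0.26 ± 0.06, 1.20-fold lower, adjusted p = 0.0249). Against WT libraries 1 and 2 the difference of -0.25 missed the threshold (adjusted p = 0.0646). Mthfd2 differed by -0.37 ± 0.10 (1.29-fold lower, adjusted p = 0.0445), and by -0.47 within WT libraries 1 and 2 (adjusted p = 0.0362). Without single libraries Mthfd2 lost its call in 12 of 14 cases, Cars in 6, Atf4 in 4, Aars in 2 and Rars in none. On the most-counted exon alone none of the 5 passed (adjusted p = 0.117 to 0.36), with differences of -0.22 to -0.50.

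**Figure D4:**
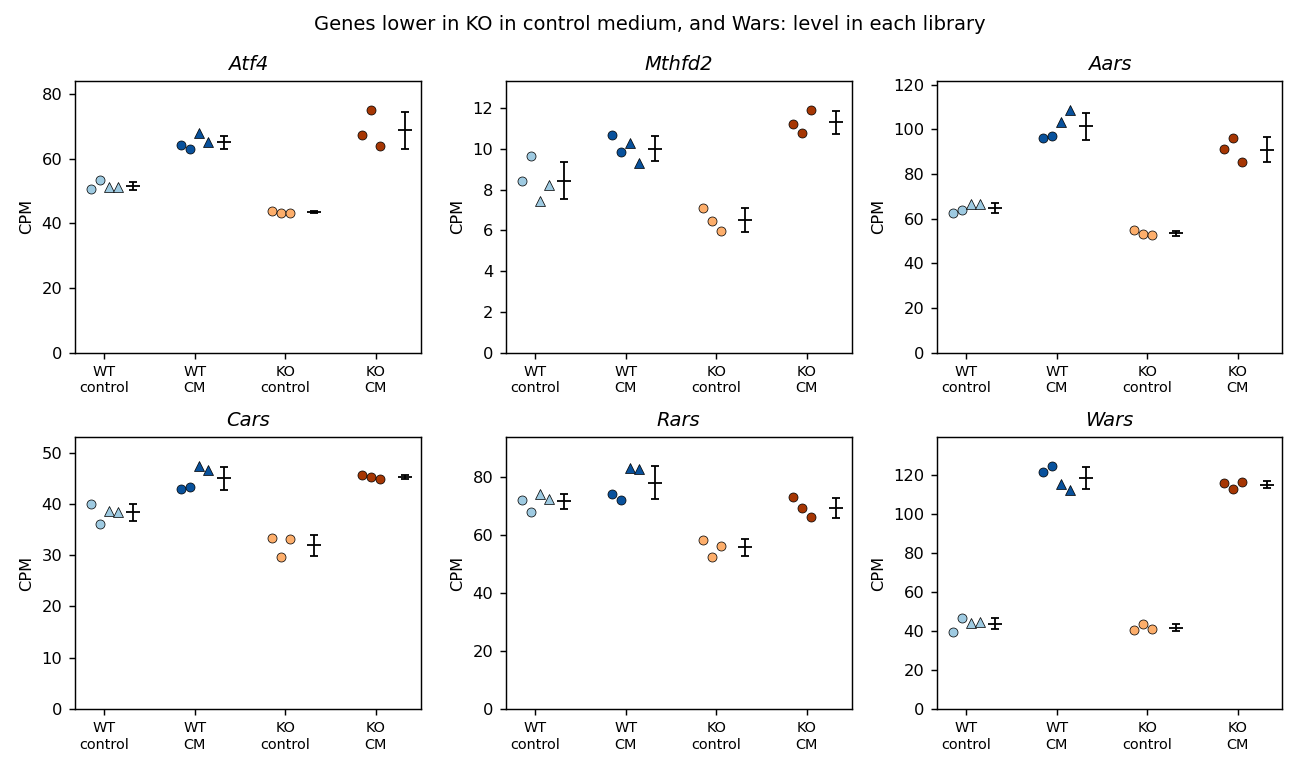
Level of the 5 genes that were lower in KO cells in control medium, and of Wars for comparison, in each library in CPM (vertical axes from 0), by group; triangles are WT libraries 3 and 4, and the bar beside each group is its mean with the SD. The 3 KO control libraries lie below all WT control libraries for Atf4, Mthfd2, Aars, Cars and Rars, and in CM the genotypes overlap except for Mthfd2.

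In CM none of the 39 members passed the edgeR test of KO against WT cells, where 4.59% of all genes were called, 3.10% higher and 1.49% lower. At an unadjusted p below 0.05 there were 9, with the share of all genes again not worked out and no excess shown. DESeq2 called 1219 of all genes and 2 members, Ppp1r15a (-0.46, adjusted p = 0.0158) and Yars (0.22, adjusted p = 0.0204). Atf4 differed by 0.08 ± 0.06 (approximate 95% interval -0.03 to 0.19) and Mthfd2 by 0.18 ± 0.10 (-0.01 to 0.37). Cars differed by 0.01 ± 0.06 (-0.11 to 0.12), Aars by -0.16 ± 0.06 (-0.27 to -0.04) and Rars by -0.17 ± 0.06 (-0.30 to -0.04). With only WT libraries 1 and 2 these differences were 0.12, 0.15, 0.08, -0.08 and -0.07 in that order, and none passed (adjusted p = 0.4 to 0.639). That of Yars was 0.22 there too (adjusted p = 0.154), and on its most-counted exon it was 0.00 (adjusted p = 0.998).

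Ppp1r15a had 15, 16.6, 19.7 and 18.8 CPM in WT control libraries against 12.8, 14.4 and 12.9 CPM in KO control libraries. In CM it had 12.9, 12.3, 17.6 and 15.9 CPM in WT and 12.0, 10.2 and 9.93 CPM in KO libraries. The groups did not overlap in either medium, but the differences of -0.39 and -0.46 did not pass the edgeR test (adjusted p = 0.088 and 0.0617), while DESeq2 called both (adjusted p = 0.0373 and 0.0158). WT libraries 3 and 4 were the higher ones in both media. With only WT libraries 1 and 2 the difference was -0.23 in each medium (adjusted p = 0.245 and 0.303), and with only libraries 3 and 4 it was -0.52 and -0.65 (adjusted p = 0.000703 and 0.0002). With only WT libraries 1 and 2 Atf3 was called, higher in KO cells by 0.24 (adjusted p = 0.0481).

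No member passed the test of whether the response to CM differed between genotypes, which called 0.00% of all genes. At an unadjusted p below 0.05 there were 7 members, with the share of all genes again not worked out and no excess shown. DESeq2 called 84 of all genes and 2 members. Atf4 rose by 0.33 more in KO than in WT cells (SE 0.08, adjusted p = 0.283), a difference that passed by DESeq2 (adjusted p = 0.0198), with the libraries paired by number within each genotype (adjusted p = 0.0393) and with the split of libraries as a term (adjusted p = 0.0369). Mthfd2 rose by 0.55 more (SE 0.14, adjusted p = 0.313), and passed by DESeq2 (adjusted p = 0.037) and with the split as a term (0.54, adjusted p = 0.0457). With only WT libraries 1 and 2 neither passed (0.38, adjusted p = 0.152, and 0.62, adjusted p = 0.166). The lower level of these genes in KO control libraries and their larger rise in KO cells rest on the same 3 KO control libraries and are not separate observations.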

How the data were processed

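The authors deposited whole-number counts per exon entry for 14 poly(A)-selected, stranded libraries read as 2 × 150 bases, per the labels' protocols. The submitters' processing notes name HISAT2 and the build mm10. The counting tool and its strand setting are not given in the sources used here, and a fragment that spans several exons may be counted in each. The table holds 427386 entries for 25239 symbols. Of these, 196941 repeated an exon of the same gene (48.6% of the count total) and were dropped, and the 230445 distinct exons were summed per gene. Exons were placed on GRCm38 (mm10) by length against GENCODE vM21. On the other strand 8 members share exon bases with another gene, and on the same strand 1 does.

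Genes were filtered (filterByExpr, minimum count 10, minimum total 15), scaled by TMM and fitted over all 14 libraries with edgeR 4.0.16 (quasi-likelihood F test, R 4.3.3), after the scripts had been tested on simulated data. Benjamini-Hochberg adjustment ran over 13311 genes, and calls were made below an adjusted p of 0.05. CPM are TMM-scaled, levels per kb divide by the length of the distinct exons, and standard errors come from the F statistic. DESeq2 1.42.0, limma-voom (limma 3.58.1), other scalings, filters and exon sums, left-out libraries and blocks were the alternatives.

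The labels number the libraries alike in each group. Deviations from group means over all genes correlated between same-numbered WT libraries of both media (r = 0.33, 0.35, 0.47 and 0.46), so the numbers were tried as a pairing. Differently numbered WT libraries on one side of the split correlated about as much (0.31 to 0.46), and those across it at -0.43 to -0.35, so pairing by number and the split cannot be told apart. Same-numbered libraries did not correlate in KO cells (0.00, -0.04 and 0.05) or between genotypes (-0.10 to 0.12).

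The members and gene lists were chosen with earlier results of these data known. Full values are given for Atf4, Wars, the called members with the 4 largest CM changes in each role and every member called between genotypes, and the other genes named come from each list by smallest p. A few members that did not pass were singled out after their values were seen. Some genes of the lists and the promoter sequences of 1 member are not reported here, and the list counts leave those genes out.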

Additional observations from a re-analysis of the deposited data

Results flagged for a closer look

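In 7 of the 78 groups of 4 WT libraries, 1 library lay far from the other 3 for a member's level (its gap to the nearest neighbour, as a share of the group's range, was above the 95% critical value of Dixon's test), where chance gives about 1 in 20. WT CM library 1 was the high one in 4 of them. It had 28.6 CPM of Slc1a5 against 23.2 to 23.4 in the others, 95.8 CPM of Lars against 87.3 to 88.3, 5.79 CPM of Slc7a1 against 3.80 to 4.09 and 0.276 CPM of the scarce Chac1 against 0.0431 to 0.0657. The Lars call with CM in WT cells was lost without that library, and the Slc1a5 call was not. WT CM library 3 had 85.4 CPM of Atf3 against 73.5 to 75.3, still far below the control libraries. WT control library 2 was the highest for Atf4, at 53.5 CPM against 50.7 to 51.2, and the lowest for Trib3, at 1.25 CPM against 1.60 to 1.65.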

How the results depend on the processing

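Over the 5 comparisons and all alternatives, 5109 of 5316 values of single members kept their side of the threshold (4850 with their direction, 259 uncalled with the other sign), 97 lost a call, 109 gained one and 1 reversed. That 1 was Tars with CM in KO cells on its most-counted exon (-0.05, adjusted p = 0.78). In each genotype 12 of the 21 members called with CM passed under every alternative.

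Counts of called members held within 1.5 times except as follows. With CM in WT cells the most-counted exon gave 13. For KO against WT in control medium, DESeq2 gave 9, a fit of the compared groups alone 2, the most-counted exon 0, WT libraries 3 and 4 alone 18, and leaving out single libraries 1 to 7. In CM, DESeq2 gave 2, the split of libraries as a term 1, WT libraries 1 and 2 alone 1, libraries 3 and 4 alone 13, and leaving out single libraries 0 to 1. For the difference of responses, DESeq2 gave 2, the split as a term 2 and the block nested in genotype 1. Over all genes, KO against WT in control medium gave 708 calls, against 1501 by DESeq2, 283 with the compared groups alone, 385 on the most-counted exon, 5246 with WT libraries 3 and 4 and 224 to 1769 without single libraries. In CM the 611 calls became 1219, 425, 428, 4791 and 217 to 721. The 0 calls of the difference became 84 by DESeq2, 164 with the split as a term and 205 with the nested block.

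With the replicate block nested in genotype, 27 members were called with CM in WT cells and 27 in KO cells. With the replicate number as a block over all libraries these counts were 21 and 23, and 5 and 0 between genotypes. Beside those given above, the block changed no call of a member in WT cells. Chac1 and Slc1a4, with under 40 counts per library, were limited by depth.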

Other observations

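Atf5 also has 2 first exons in the count table, of 257 bases (chr7:44816402-44816658, outer) and 177 bases (chr7:44815482-44815658, inner). The count of the outer one was 138.6% to 165.6% of that of exon 2 in WT control libraries and 105.8% to 129.2% in WT CM libraries. In KO libraries it was 167.9% to 192.4% in control medium and 94.2% to 106.0% in CM. The inner one went from 24.7% to 36.2% down to 21.1% to 23.2% in WT libraries and from 27.5% to 33.1% down to 15.6% to 20.7% in KO libraries. Both shares were lower in every CM library than in any control library of the same genotype, while the summed count of the gene rose. The outer exon overlaps exons of 2 other genes on the opposite strand. These values were singled out after they were seen and carry no test.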
